A study of Mus musculus with 26 samples.

Results

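The genes described here encode 10 subunits of the BAF complexes, the mammalian SWI/SNF chromatin remodellers. They are the ATPases Smarca2 and Smarca4, the core proteins Smarcc1, Smarcc2, Smarcd1, Smarcd2 and Smarcd3, the large DNA-binding subunits Arid1a and Arid1b, and the actin-related protein Actl6a. They were taken by gene symbol, not by any measured value, from a table of 18198 genes. All 10 were in the table and all 10 passed the filter on low values, a score of at least 10 in at least 2 libraries, which 16038 genes passed.

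BAF complexes use ATP to slide or evict nucleosomes and so open promoters and enhancers. Several of their positions can be filled by either of a pair, or any of a trio, of paralogs, so the make-up of the complex in a cell depends on which paralogs it makes. Mouse embryonic stem cells are known for a form built around the products of Smarca4, Smarcc1, Smarcd1, Arid1a and Actl6a, with little of the products of Smarca2 and Smarcc2, whereas fibroblasts make both members of those pairs.

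RNA was measured in 26 mouse libraries, 2 in each of 13 groups. ESC are embryonic stem cells of a CBA/CaJ X C57BL/6J strain at passage 20 to 24, and iPSC are induced pluripotent stem cells grown from picked colonies at passage 5 to 8. Both lines were grown in N2B27 medium with 2i and LIF. MEF are mouse embryonic fibroblasts at passage 2, grown with 10% FBS, and no strain is given for MEF or iPSC. The OSK groups are MEF infected with retrovirus and collected on day 0, 1, 3, 5 and 7, where OSK is the usual abbreviation for the factors Oct4, Sox2 and Klf4. The OSK-cJun groups carry cJun as well and were collected on day 0, 1, 3 and 7, and OSK-shSap30-D7 cells also received a hairpin against Sap30, by lentivirus, and were collected on day 7. Infected cells were kept in iCD1 or ESC medium, and the labels do not say which group had which. The labels do not say whether the libraries of a group came from separate cultures, so p-values measure the spread between these libraries only.

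The unit is a score, the authors' normalised value, with nearly the same distribution in every library (library totals from 4619641 to 4624161). Whether the score is divided by gene length is not given in the sources used here, so levels are compared between libraries and not between genes. The targeted genes followed the labels. Jun, an AP-1 factor, stood at 4616 to 8981 in the 8 OSK-cJun libraries and at no more than 1010 in any other. The score of Sap30, which encodes a partner of the Sin3 corepressor, was 20 and 41 with the hairpin against 301 and 378 in OSK-D7. Pou5f1, the gene of Oct4, was at 2 and 0 in MEF and already at 11662 and 8974 in OSK-D0, so the day 0 libraries held factor RNA. The summed score of 8 fibroblast markers ran from 98735 to 101835 in MEF, from 8031 to 15073 in iPSC and from 171 to 674 in ESC. The summed score of 8 pluripotency markers ran from 8 to 36 in MEF, with Zfp42 and Fgf4 at 0, from 26485 to 27019 in iPSC and from 31268 to 31426 in ESC. The replicates of OSK-D5 stood apart from each other, with a pluripotency sum of 4305 in one and 23362 in the other. Pou5f1, a delivered factor that this sum takes in, was at 656 in the first and 21544 in the second. The gap in the sum is therefore not a measure of pluripotency. MEF replicates had the lowest correlation of the 13 groups, 0.925, with 0.935 in OSK-D5. Their summed scores of 12 proliferation markers were 4653 and 11215. MEF is the reference for the ESC and iPSC comparisons below.

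The promoter sequences of the 5 genes whose ESC and iPSC libraries stood apart from all others are shown first, since their stem-line values did not overlap those of the other 22 libraries. Each run gives 250 bases before and 50 bases after the RefSeq start on the gene's own strand, 5′ to 3′, in build GRCm38.p6. They are chr19:26604910-26605209 for Smarca2, chr9:110131774-110132073 for Smarcc1, chr10:128458986-128459285 for Smarcc2, chr15:99702037-99702336 for Smarcd1 and chr3:32708296-32708595 for Actl6a, all on the forward strand. The RefSeq start lies inside the annotated gene in 4 of the 5, by 14316 bases for Smarcc1, 2248 for Actl6a, 158 for Smarcd1 and 110 for Smarca2, so for Smarcc1 and Actl6a the window is not that of the first annotated start. Capitals mark matches on either strand to 4 motifs that were searched: AP-1 (TGANTCA), the octamer bound by Oct4 (ATGCAAAT), a Klf motif (GGGTGNGG) and the E-box (CACGTG).
Smarca2: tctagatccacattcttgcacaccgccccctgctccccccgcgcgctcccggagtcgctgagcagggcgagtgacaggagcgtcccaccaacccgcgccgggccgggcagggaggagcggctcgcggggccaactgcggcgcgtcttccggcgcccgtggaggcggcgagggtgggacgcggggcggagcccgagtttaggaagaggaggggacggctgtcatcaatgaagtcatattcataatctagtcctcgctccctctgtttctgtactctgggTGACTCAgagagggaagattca
Smarcc1: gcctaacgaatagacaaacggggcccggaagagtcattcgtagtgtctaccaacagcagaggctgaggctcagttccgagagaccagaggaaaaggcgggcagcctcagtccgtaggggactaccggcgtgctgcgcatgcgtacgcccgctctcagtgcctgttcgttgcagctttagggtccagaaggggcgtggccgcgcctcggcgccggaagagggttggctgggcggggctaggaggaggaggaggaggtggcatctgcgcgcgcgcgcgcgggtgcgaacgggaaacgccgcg
Smarcc2: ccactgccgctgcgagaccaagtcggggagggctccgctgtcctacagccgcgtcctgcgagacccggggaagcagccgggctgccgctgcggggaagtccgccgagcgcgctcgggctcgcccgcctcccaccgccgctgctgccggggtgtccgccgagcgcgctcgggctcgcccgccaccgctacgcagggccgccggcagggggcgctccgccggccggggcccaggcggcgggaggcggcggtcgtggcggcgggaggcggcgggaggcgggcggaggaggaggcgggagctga
Smarcd1: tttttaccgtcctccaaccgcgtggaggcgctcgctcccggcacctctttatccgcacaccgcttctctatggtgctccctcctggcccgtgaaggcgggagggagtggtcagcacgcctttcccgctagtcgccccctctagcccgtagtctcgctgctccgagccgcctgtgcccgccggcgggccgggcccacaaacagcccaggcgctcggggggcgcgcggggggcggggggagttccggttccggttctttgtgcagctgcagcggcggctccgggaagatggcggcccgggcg
Actl6a: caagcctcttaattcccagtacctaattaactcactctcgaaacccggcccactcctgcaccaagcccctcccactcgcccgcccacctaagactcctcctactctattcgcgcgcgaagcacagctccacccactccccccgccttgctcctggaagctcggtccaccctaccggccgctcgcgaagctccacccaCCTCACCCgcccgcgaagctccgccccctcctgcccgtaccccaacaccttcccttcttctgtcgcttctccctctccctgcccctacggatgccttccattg
Smarca2 held an AP-1 match, TGACTCA, at position 29 after the start, and Actl6a held a Klf match on the reverse strand, CCTCACCC, at position -53. No motif searched was found in the windows of Smarcc1, Smarcc2 and Smarcd1. Of 32851 RefSeq promoters of the same length, 7.81% held the AP-1 motif, 1.74% the octamer, 16.6% the Klf motif and 7.15% the E-box. All 5 windows were rich in CpG, with 29 CpG in Smarca2, 33 in Smarcc1, 48 in Smarcc2, 35 in Smarcd1 and 21 in Actl6a, where the median promoter had 7. A match describes the letters of the window and does not show that a factor binds there.

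Of the 10 genes, 5 had all 4 ESC and iPSC libraries outside the range of the other 22 libraries. Smarca2 and Smarcc2 were lower in the stem cell lines, and Smarcc1, Smarcd1 and Actl6a were higher. Of all 16038 genes tested, 26.3% stood apart in this way, 16.4% higher and 9.96% lower. In bulk RNA, a change in the share of cells that make a transcript and a change in each cell cannot be told apart. The summed score of 12 proliferation markers was also higher in the stem cell lines, at 24083 to 28196 against 4653 to 19796 in the other libraries, and its part in these differences was not tested.

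**Figure D1:**
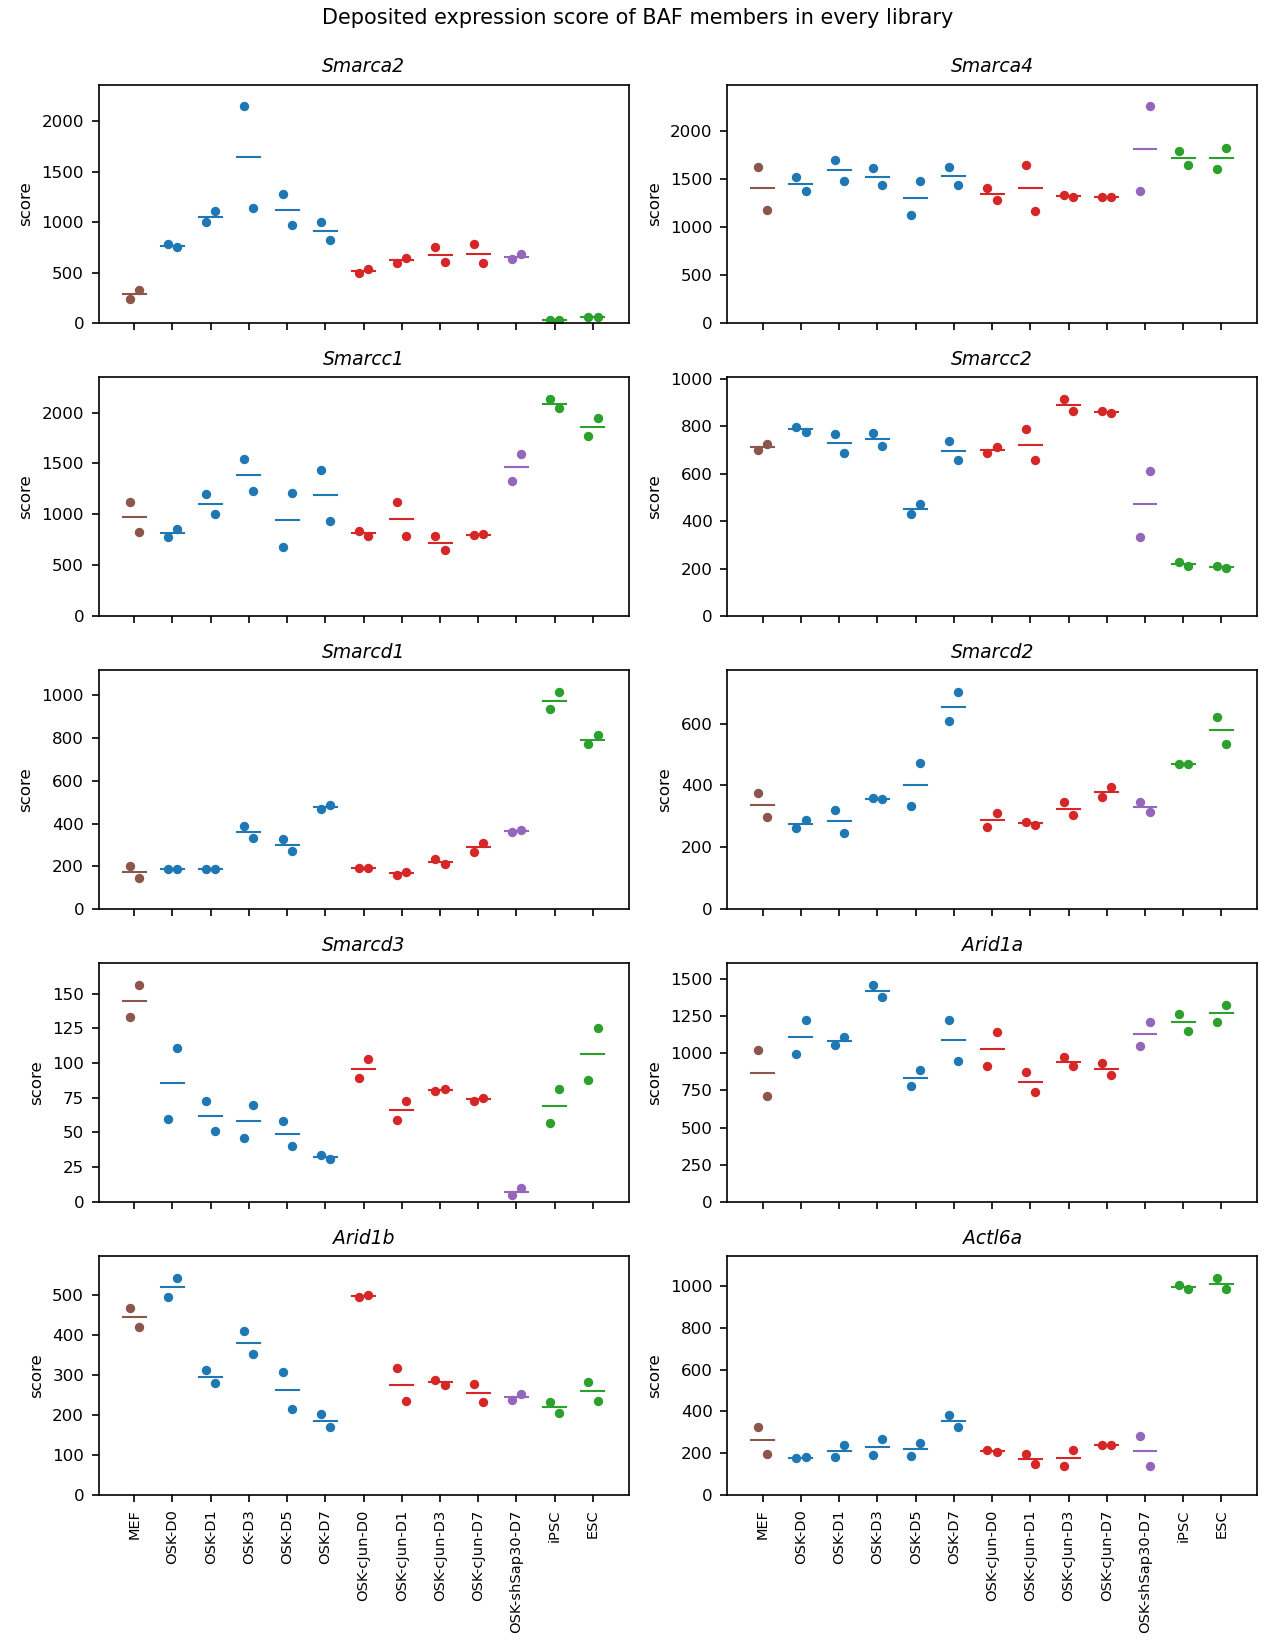
Score of each of the 10 BAF genes (vertical axis, linear, from 0) in every library (points) by group (horizontal axis), with the group mean as a bar. Smarca2 is at 28 to 58 in the ESC and iPSC libraries and at 242 to 2151 elsewhere, while Smarca4 stays between 1131 and 2263 throughout.

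Smarca2 (ENSMUSG00000024921, chr19:26605050-26778322, forward strand) encodes BRM, one of the alternative ATPases of the complex. Its score was 57 and 58 in ESC, 28 and 30 in iPSC, and 242 and 329 in MEF. Along the OSK course it was 785 and 752 on day 0, 1001 and 1111 on day 1, 2151 and 1140 on day 3, 1280 and 971 on day 5, and 1001 and 827 on day 7. Every infected library therefore lay above both MEF libraries, and every stem-line library lay below them. With cJun added it was 497 and 536, 595 and 646, 749 and 608, and 781 and 597 on days 0, 1, 3 and 7, and with the Sap30 hairpin it was 637 and 682. In order of mean level, iPSC, ESC, MEF, OSK-cJun-D0 and OSK-cJun-D1 each lay above the group before without overlap. From OSK-cJun-D1 upwards each group overlapped the next, except that OSK-D7 lay above OSK-D0. Its range of group means, 5.71 on the log2 scale, was the widest of the 10 and wider than that of 88.8% of all genes tested.

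Smarca4 (ENSMUSG00000032187, chr9:21616169-21704230, forward strand) encodes BRG1, the other ATPase. Its score was 1612 and 1828 in ESC, 1797 and 1654 in iPSC, and 1633 and 1180 in MEF. Over all 26 libraries it ran from 1131 in an OSK-D5 library to 2263 in an OSK-shSap30-D7 library whose replicate was at 1378. Every group overlapped the next in order of mean level. The range of its group means was 0.45 on the log2 scale, and 0.281% of genes tested had a smaller range.

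The 2 core proteins of the Smarcc family, which hold the complex together, moved in opposite directions. Smarcc1 (ENSMUSG00000032481, chr9:110117708-110240178, forward strand), the gene of BAF155, was at 1774 and 1950 in ESC, 2132 and 2042 in iPSC, and 1116 and 829 in MEF. Smarcc2 (ENSMUSG00000025369, chr10:128459248-128490482, forward strand), the gene of BAF170, was at 213 and 203 in ESC, 228 and 211 in iPSC, and 701 and 724 in MEF. Smarcc1 was higher in each stem-line library than in any other, and Smarcc2 was lower. Along the OSK course Smarcc1 was at 774 and 856, 1195 and 1005, 1542 and 1228, 683 and 1214, and 1439 and 934 on days 0, 1, 3, 5 and 7. Smarcc2 was at 798 and 777, 770 and 688, 773 and 718, 432 and 474, and 738 and 658 on the same days. Neither gene had reached the stem-line range in any OSK library, and the lowest Smarcc2 values of the course were those of day 5.

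Of the Smarcd trio, which links the core to transcription factors, Smarcd1 (ENSMUSG00000023018, chr15:99702129-99713991, forward strand) showed the stem-line difference. It was at 771 and 815 in ESC, 936 and 1015 in iPSC, and 199 and 147 in MEF. Along the OSK course it was at 188 and 188, 185 and 186, 389 and 331, 326 and 270, and 467 and 486 on days 0, 1, 3, 5 and 7. The day 3, 5 and 7 libraries all lay above MEF and below ESC. Smarcd2 (ENSMUSG00000078619, chr11:106263179-106272972, reverse strand) was at 622 and 534 in ESC, 468 and 468 in iPSC, and 375 and 297 in MEF. Its highest libraries were not stem cells only, since OSK-D7 stood at 609 and 702 after 261 and 288 on day 0, and OSK-D7 overlapped ESC.

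Smarcd3 (ENSMUSG00000028949, chr5:24590818-24624411, reverse strand), known from heart and neural forms of the complex, was at 88 and 125 in ESC, 57 and 81 in iPSC, and 133 and 156 in MEF. It was at 60 and 111 in OSK-D0, 34 and 31 in OSK-D7, and 5 and 10 in OSK-shSap30-D7. The hairpin libraries lay below all others, and MEF lay above all others. Smarcd3 is uncertain, because 48.2% of its exon bases (2466 bases) overlap Chpf2, a gene on the opposite strand, and the library kit does not mark strand, so reads of the pair cannot be told apart in the overlap.

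The Arid1 subunits, which bind DNA, are alternatives in the canonical complex. Arid1a (ENSMUSG00000007880, chr4:133679008-133756769, reverse strand) was at 1212 and 1327 in ESC, 1265 and 1153 in iPSC, and 1025 and 716 in MEF, and it was highest in OSK-D3, at 1458 and 1376. Arid1b (ENSMUSG00000069729, chr17:4994332-5347656, forward strand) was at 284 and 235 in ESC, 234 and 205 in iPSC, and 469 and 420 in MEF. Arid1b was highest in OSK-D0, at 497 and 543, and lowest in OSK-D7, at 202 and 169. Both stem-line groups of Arid1b therefore lay between the start and the end of the OSK course.

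Actl6a (ENSMUSG00000027671, chr3:32706298-32726973, forward strand) encodes the actin-related subunit BAF53A of dividing cells. It was at 1038 and 984 in ESC, 1003 and 984 in iPSC, and 326 and 197 in MEF. In the other infected groups it ran from 138 in an OSK-cJun-D3 library to 385 in an OSK-D7 library, and ESC and iPSC overlapped each other. Mrpl47, on the opposite strand, shares 11.6% of the exon bases of Actl6a. For Smarcc1, Smarcd1 and Smarca2 the share that overlaps any 1 gene on the opposite strand was at most 7.13%.

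Differences were tested with limma across all 16038 genes, with Benjamini-Hochberg adjustment over all of them, and a gene is said to rise or fall where the adjusted p was below 0.05. Fold changes are on the log2 scale of score + 1. In ESC against MEF, 54.6% of all genes tested passed, 29.3% higher and 25.4% lower, and 8 of the 10 BAF genes passed, 5 higher and 3 lower. The median fold of the 10 was 0.44, against 0.13 for all genes tested. Their median absolute fold was 0.87, and that of all genes was not worked out. Smarcd1 rose by 2.21 (SE 0.16, limma adjusted p = 3.16e-09) and Actl6a by 1.99 (SE 0.30, adjusted p = 2.73e-05). Smarcc1 rose by 0.95, Smarcd2 by 0.79 and Arid1a by 0.57. Smarca2 fell by 2.28 (SE 0.24, adjusted p = 3.75e-07), Smarcc2 fell by 1.77 (SE 0.20, adjusted p = 7.08e-07) and Arid1b fell by 0.78. Smarca4 differed by 0.31, with a 95% interval from -0.17 to 0.78, and Smarcd3 by -0.45, with an interval from -1.18 to 0.27, and neither passed. Arid1a no longer passed without ESC replicate 2 (0.50) or MEF replicate 2 (0.31), nor did Smarcc1 without MEF replicate 2 (0.74).

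In iPSC against MEF, which shares the MEF libraries with the comparison above, 51.4% of all genes passed, 26.9% higher and 24.5% lower, and 9 of the 10 BAF genes did, 5 higher and 4 lower. Smarcd1 rose by 2.50, Actl6a by 1.97, Smarcc1 by 1.12, Arid1a by 0.49 and Smarcd2 by 0.49. Smarca2 fell by 3.24, Smarcc2 fell by 1.70, Smarcd3 fell by 1.07 and Arid1b fell by 1.02. Chpf2, which overlaps Smarcd3, fell by 2.81 in this comparison and fell by 2.76 in ESC against MEF. Mrpl47, which overlaps Actl6a, rose by 0.97 in iPSC against MEF and was 0.65 higher in ESC against MEF without passing. The part of these overlaps in the scores of Smarcd3 and Actl6a was not tested. Smarca4, at 0.31 (95% interval -0.16 to 0.78), was the gene that did not pass. Without MEF replicate 2, Smarcd2 (0.32), Arid1a (0.24) and Smarcd3 (-0.96) no longer passed. Smarcd2 and Arid1a were also lost without either iPSC library (Smarcd2 at 0.49 in both cases, Arid1a at 0.43 and 0.56), as was Smarcd3 without iPSC replicate 1 (-0.82).

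The stem cell lines differed from each other in Smarca2, which was lower in iPSC than in ESC by -0.96 (SE 0.24, limma adjusted p = 0.0178), while the other 9 genes did not pass. Of all genes, 7.11% passed in this comparison, 5.02% higher and 2.1% lower. The call was lost when any 1 of the 4 libraries was left out, with folds from -0.92 to -1.01. The summed score of the fibroblast markers, given above, was higher in iPSC than in ESC, and its part in this difference was not tested.

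**Figure D2:**
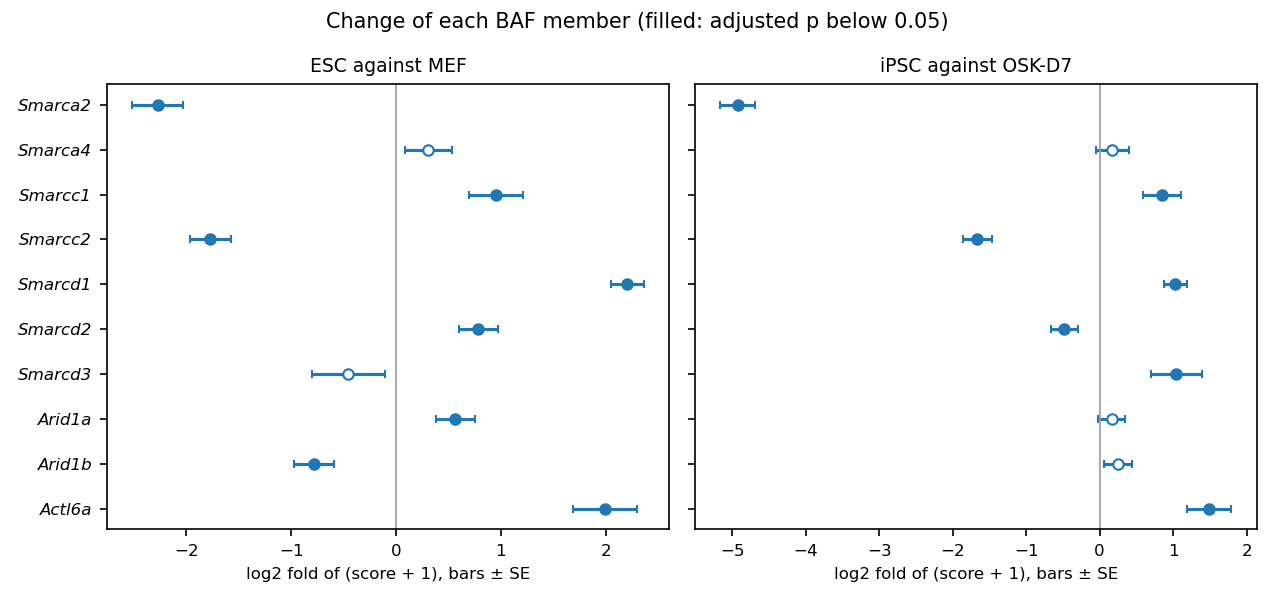
Log2 fold of score + 1 for each BAF gene (points, with bars of 1 SE), ESC against MEF on the left and iPSC against OSK-D7 on the right, and filled points for an adjusted p below 0.05. Smarca2 and Smarcc2 lie to the left of 0 in both panels (-2.28 and -1.77, then -4.92 and -1.66), and Smarcc1, Smarcd1 and Actl6a lie to the right in both.

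The balance of paralog RNA was measured as the log2 ratio of their scores within each library, and no protein or complex was measured. A ratio compares 2 genes of unknown length scaling, so its level has no meaning by itself and its change between libraries does. The ratio of Smarca4 to Smarca2 was 4.80 and 4.95 in ESC and 5.95 and 5.74 in iPSC. It was 2.75 and 1.84 in MEF and 0.95 and 0.87 in OSK-D0. The stem-line mean was 3.76 higher than that of the 4 MEF and OSK-D0 libraries, a 13.5-fold change of the ratio. Against the MEF libraries alone it was 3.07 higher, an 8.38-fold change, and Smarca2 was higher in OSK-D0 than in MEF. The ratio of Smarcc1 to Smarcc2 was 3.05 to 3.27 in the stem lines and -0.04 to 0.67 in MEF and OSK-D0, a difference of 2.96. The ratio of Smarcd1 to Smarcd3 was 2.70 to 4.01 and -0.09 to 1.63, a difference of 2.64, and Smarcd3 carries the overlap with Chpf2 given above. The ratio of Arid1a to Arid1b was 2.09 to 2.49 and 0.77 to 1.17, a difference of 1.36. In these 4 pairs the sides did not overlap, and the two-sided exact permutation test gave p = 0.0286, the smallest that 70 permutations can give (0.0357 adjusted over 5 pairs). This p restates the lack of overlap. The share of other gene pairs without overlap was not worked out, so it only describes the values. OSK-D0 was joined to MEF because the exact permutation test against MEF alone cannot give a p below 0.0667. The ratio of Smarcd2 to Smarcd3 overlapped, at 2.09 to 3.02 and 0.92 to 2.10, with a difference of 1.14 (exact permutation p = 0.0571, also after adjustment). Each side joins 2 groups whose libraries are not fully exchangeable, and the OSK-D0 cells held factor RNA, so these p-values describe the 8 libraries.

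**Figure D3:**
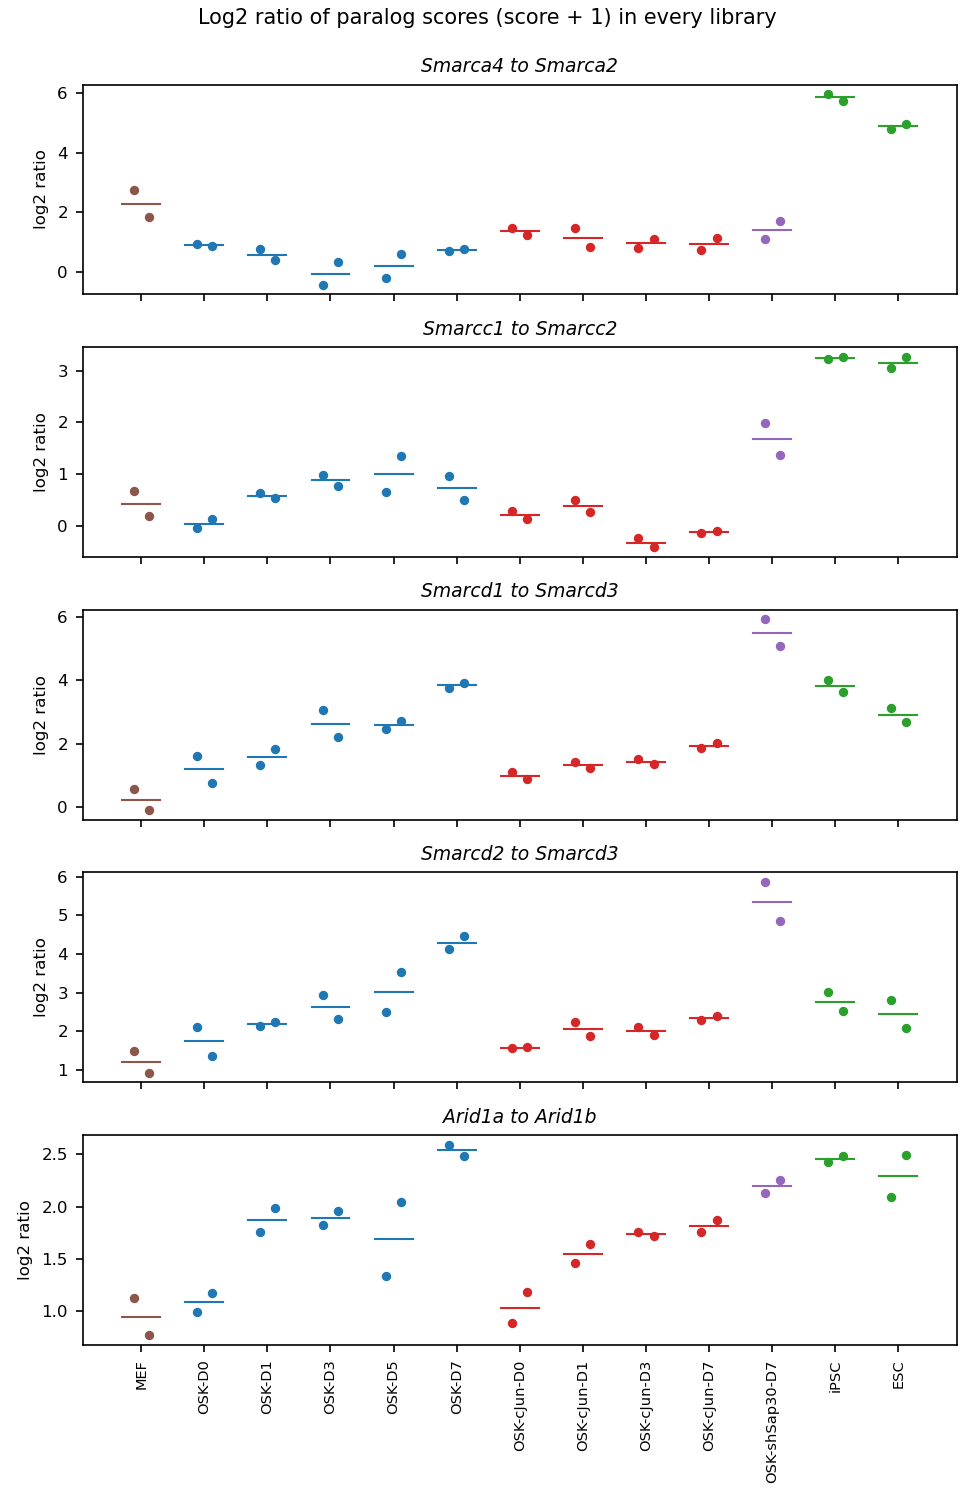
Log2 ratio of score + 1 of each paralog pair (vertical axis) in every library (points) by group (horizontal axis), with the group mean as a line. The ratio of Smarca4 to Smarca2 falls from a mean of 2.29 in MEF to -0.04 in OSK-D3 and is 5.85 in iPSC, while that of Arid1a to Arid1b is 2.54 in OSK-D7 and 2.46 in iPSC.

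The pairs differed in how their ratios ran along the OSK course. The mean ratio of Arid1a to Arid1b was 0.95 in MEF, 1.08 on day 0, 1.87 on day 1 and 2.54 on day 7, where the libraries, at 2.59 and 2.48, were near the highest stem-line value of 2.49. The mean ratio of Smarcd1 to Smarcd3 went from 0.25 in MEF through 1.19 on day 0 to 3.83 on day 7, within the stem-line range. Neither gene was itself within its stem-line range on day 7. Smarcd1 was at 467 and 486, below the lowest stem-line value of 771, and Smarcd3 at 34 and 31, below 57. The hairpin libraries had ratios of 5.91 and 5.07, above the stem lines, and Smarcd3 carries the overlap with Chpf2. The mean ratio of Smarcc1 to Smarcc2 was 0.43 in MEF and 0.73 on day 7, far from 3.15 in ESC. The mean ratio of Smarca4 to Smarca2 went the other way, from 2.29 in MEF to 0.75 on day 7. On a scale where MEF is 0% and ESC is 100% on the log2 scale, the mean of OSK-D7 stood at 66.8% for Smarcd1, 28.3% for Smarcc1, 24.0% for Actl6a, 1.79% for Smarcc2 and -74.1% for Smarca2. The OSK-D7 libraries overlapped those of MEF for Smarcc1 (1439 and 934, against 1116 and 829) and Actl6a (385 and 324, against 326 and 197). Smarcc2 overlapped as well (738 and 658, against 701 and 724). OSK-D7 was not tested against MEF.

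Step by step along the course, few of the 10 genes passed. In OSK-D0 against MEF, where 9.05% of all genes passed (5.86% higher and 3.19% lower), Smarca2 rose by 1.44 (SE 0.24, limma adjusted p = 0.000771) and the other 9 did not pass. From day 0 to day 1 (8.36% of all genes, 4.49% higher and 3.87% lower), Arid1b fell by 0.81, a call lost without OSK-D0 replicate 1 (-0.88), OSK-D0 replicate 2 (-0.75) or OSK-D1 replicate 2 (-0.73). From day 1 to day 3 (8.37% of all genes, 4.21% higher and 4.16% lower), Smarcd1 rose by 0.95 (SE 0.16, adjusted p = 0.000893). Smarca2 was 0.57 higher on day 3 than on day 1 and did not pass (adjusted p = 0.177), but did without OSK-D3 replicate 2 (1.03), the lower of 2 libraries at 2151 and 1140.

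From day 3 to day 7, where 11.2% of all genes passed (5.09% higher and 6.11% lower), Smarcd2 rose by 0.87, Arid1b fell by 1.04 and Smarca2 fell by 0.78. All 3 calls were lost in fits that left 1 library in a group, and the fold of Smarca2 moved most in them. Without OSK-D3 replicate 1 the folds were 0.88, -0.93 and -0.33, and without OSK-D7 replicate 2 they were 0.77, -0.91 and -0.65, and none passed. The fold of Smarca2 was also short of the threshold without OSK-D7 replicate 1 (-0.92).

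Over the whole course, OSK-D7 against OSK-D0, 32.2% of all genes passed, 16.4% higher and 15.8% lower, and 5 of the 10 BAF genes did, 3 higher and 2 lower. Smarcd1 rose by 1.34 (SE 0.16, limma adjusted p = 4.93e-06), Smarcd2 by 1.25 (SE 0.18, adjusted p = 5.33e-05) and Actl6a by 0.98. Arid1b fell by 1.49 (SE 0.19, adjusted p = 1.24e-05) and Smarcd3 fell by 1.30. Smarcc2 (-0.18, 95% interval -0.59 to 0.24), Smarca2 (0.24, interval -0.26 to 0.75) and Smarcc1 (0.51, interval -0.03 to 1.05) did not pass. The rise of Actl6a was lost without OSK-D0 replicate 1 (0.94), OSK-D0 replicate 2 (1.01) or OSK-D7 replicate 1 (0.85), and the fall of Smarcd3 without OSK-D0 replicate 2 (-0.87). Chpf2, which overlaps Smarcd3, fell by 1.06, and its part in the Smarcd3 score was not tested.

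The day 7 cells still differed from iPSC in 7 of the 10 genes, with 41% of all genes passing, 20.9% higher and 20.1% lower. Smarca2 was lower in iPSC by -4.92 (SE 0.24, limma adjusted p = 3.04e-10), the largest fold of the 10 genes in any comparison made, and Smarcc2 by -1.66 (SE 0.20, adjusted p = 4.28e-06). Actl6a was higher by 1.49, Smarcd1 by 1.03, Smarcd3 by 1.04 and Smarcc1 by 0.85, and Smarcd2 was lower by -0.48. Arid1a (0.16), Arid1b (0.24) and Smarca4 (0.17) did not pass. The call of Smarcd2 was lost without any 1 of the 4 libraries (-0.38 to -0.58). That of Smarcc1 was lost without OSK-D7 replicate 2 (0.54), iPSC replicate 1 (0.82) or iPSC replicate 2 (0.88), and that of Smarcd3 without OSK-D7 replicate 1 (1.11), OSK-D7 replicate 2 (0.98) or iPSC replicate 2 (0.79). Chpf2 was lower in iPSC, by -1.57, where Smarcd3 was higher. Mrpl47 was higher in iPSC, by 1.47, as Actl6a was, and its part in the Actl6a score was not tested.

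Added cJun was compared with OSK alone on the same day. On day 0, where 0.0811% of all genes passed (0.0312% higher and 0.0499% lower), and on day 1, where 2.36% did (1.47% higher and 0.892% lower), 0 of the 10 genes passed in limma, whether the fit held all libraries or those compared alone. With those compared alone 0 of all genes passed on either day, so that fit cannot decide whether the 10 genes changed. At an unadjusted p below 0.05 there was 1 gene on day 0 and there were 2 on day 1, in either fit. Of all 16038 genes, 712 on day 0 and 1934 on day 1 were at that level in the fit of all libraries. With those compared alone the counts were 984 and 2161. Whether the 10 genes differed from all genes in this was not tested. In the fit of all libraries the BAF genes were Smarca2 on both days and Arid1a on day 1. Smarca2 was lower by -0.57 on day 0 and by -0.77 on day 1, and Arid1a by -0.43 on day 1.

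On day 3, where 9.63% of all genes passed (5.13% higher and 4.51% lower), 3 of the 10 genes were lower with cJun. Smarca2 was at 749 and 608 with cJun and at 2151 and 1140 without, a fold of -1.21 (SE 0.24, limma adjusted p = 0.00302). Smarcc1 was at 784 and 652 against 1542 and 1228 (-0.94, adjusted p = 0.0252), and Smarcd1 at 232 and 210 against 389 and 331 (-0.70, adjusted p = 0.00776). In all 3 genes the groups, of 2 libraries each, did not overlap. The share of all genes without overlap was not worked out, so this only describes the values. Without OSK-D3 replicate 1 none of them passed, at -0.76 for Smarca2, -0.78 for Smarcc1 and -0.58 for Smarcd1. Smarcd1 was also lost without OSK-cJun-D3 replicate 2 (-0.63). Smarcc1 was lost too without OSK-D3 replicate 2 (-1.11), OSK-cJun-D3 replicate 1 (-1.08) or OSK-cJun-D3 replicate 2 (-0.81).

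On day 7, where 16.7% of all genes passed (8.7% higher and 7.96% lower), 2 of the 10 genes were lower with cJun and 1 was higher. Smarcd1 was at 268 and 310 with cJun against 467 and 486 without (-0.72, SE 0.16, limma adjusted p = 0.00415). Smarcd2 was at 363 and 396 against 609 and 702 (-0.78, SE 0.18, adjusted p = 0.00710). Smarcd3 was at 73 and 75 against 34 and 31 (1.16, SE 0.35, limma adjusted p = 0.0282). The groups did not overlap in any of the 3, and the share of all genes without overlap was not worked out. Chpf2 was higher with cJun as well, by 1.31, and its part in the Smarcd3 score was not tested. The Smarcd3 call was lost without any 1 of the 4 libraries (1.10 to 1.23). That of Smarcd2 was lost without OSK-D7 replicate 2 (-0.68) or OSK-cJun-D7 replicate 1 (-0.72), and that of Smarcd1 without OSK-cJun-D7 replicate 1 (-0.62).

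Within the cJun course, OSK-cJun-D7 against OSK-cJun-D0, 23.4% of all genes passed, 11.5% higher and 12% lower. Of the 10 genes, Smarcd1 rose by 0.58 (SE 0.16, limma adjusted p = 0.0122) and Arid1b fell by 0.97 (SE 0.19, adjusted p = 0.00106), and the other 8 did not pass. The rise of Smarcd1 was lost without either OSK-cJun-D0 library (0.58 and 0.57) or OSK-cJun-D7 replicate 2 (0.47). Arid1b was at 495 and 500 on day 0, 317 and 236 on day 1, 288 and 276 on day 3, and 277 and 232 on day 7, so it was low from day 1 on. The change from day 0 to day 7 with cJun minus that without it was tested as an interaction, which 4.02% of all genes passed (2.53% higher and 1.49% lower) and 0 of the 10 did in limma. At an unadjusted p below 0.05 there were 2 of the 10, beside 2905 of all 16038 genes. The 2 were Smarcd1 at -0.76 (adjusted p = 0.0638) and Smarcd2 at -0.85 (adjusted p = 0.0800). Both passed, at adjusted p = 0.0475 and 0.0440, in a fit without the OSK-D5 libraries, which are not part of the contrast.

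The Sap30 hairpin was compared with OSK-D7, the same libraries that served as controls for cJun on day 7. No group had a control hairpin or the lentivirus alone, so the hairpin and the lentivirus cannot be told apart here. The hairpin libraries were also named in another style than the OSK-D7 libraries and numbered apart from them. A difference between sample sets cannot be told apart from the hairpin either. Of all genes, 14.8% passed (7.28% higher and 7.52% lower), and 3 of the 10 BAF genes were lower with the hairpin. Smarcd3 was at 5 and 10 against 34 and 31 (-2.04, SE 0.35, limma adjusted p = 0.00106), and Smarcd2 at 348 and 315 against 609 and 702 (-0.98, SE 0.18, adjusted p = 0.00229). Smarcc2 was at 335 and 613 against 738 and 658 (-0.62, SE 0.20, adjusted p = 0.0424). Its hairpin libraries differed widely, and the call was lost without OSK-D7 replicate 1 (-0.54), OSK-D7 replicate 2 (-0.70) or hairpin replicate 1 (-0.18). Actl6a, at 284 and 140 against 385 and 324, did not pass (-0.82, adjusted p = 0.0796), but did without hairpin replicate 1 (-1.33). Chpf2, at 356 and 269 against 182 and 245, was higher by 0.55 and did not pass, where Smarcd3 fell.

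**Figure D4:**
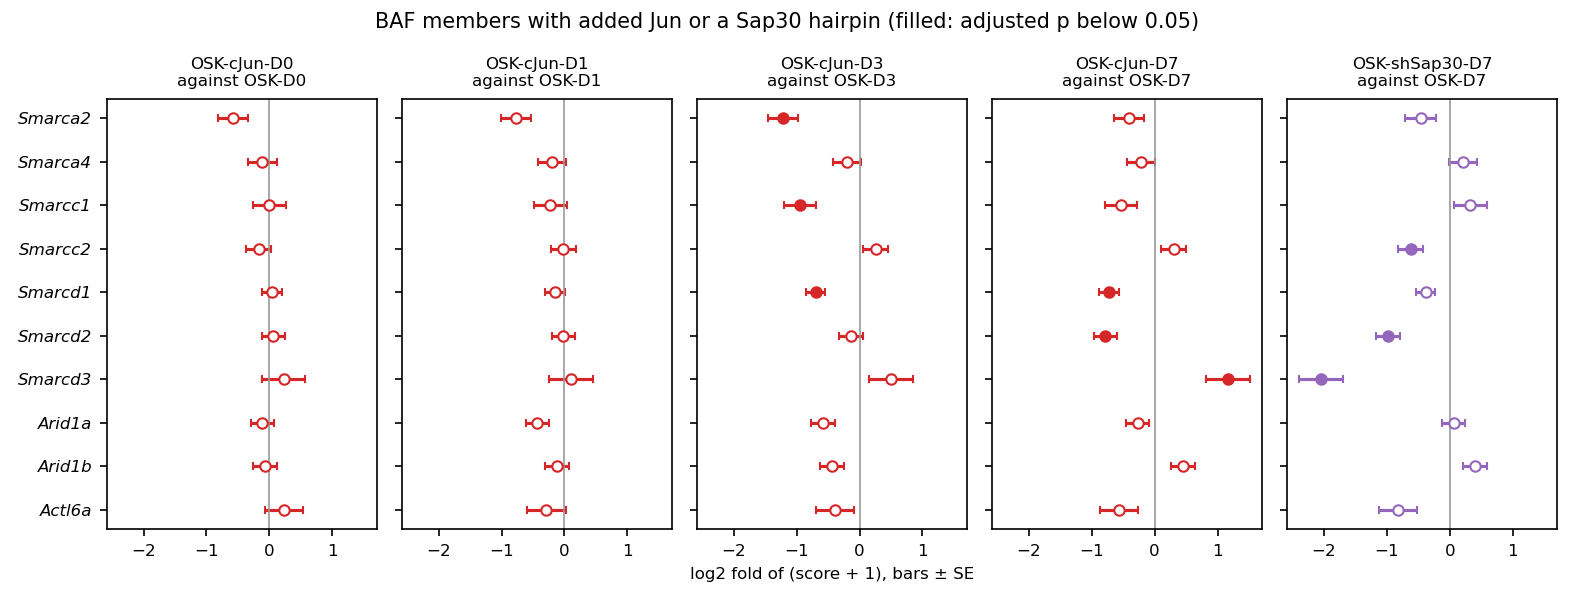
Log2 fold of score + 1 for each BAF gene (points, with bars of 1 SE), filled for an adjusted p below 0.05. The panels show added cJun on days 0, 1, 3 and 7 and the Sap30 hairpin on day 7, each against OSK of the same day. No point is filled in the day 0 and day 1 panels. Smarcd3 is at 1.16 with cJun on day 7 and at -2.04 with the hairpin, and Smarcd2 is below 0 in both (-0.78 and -0.98).

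A log2 fold of at least 1 was also asked for as a stricter call. In ESC against MEF, 4 of the 10 genes then passed, beside 43% of all genes, and in iPSC against MEF 7 passed, beside 40%. In iPSC against OSK-D7, 5 passed beside 30.3% of all genes, and in OSK-D7 against OSK-D0, 4 passed beside 23.8%. Smarca2 was the single gene to pass in OSK-D0 against MEF (6.98% of all genes) and with cJun on day 3 (7.54%). Arid1b was the single gene in OSK-D7 against OSK-D3 (7.58%), and Smarcd3 was the single gene with cJun on day 7 (11.8%) and with the hairpin (9.85%). In the other comparisons 0 of the 10 passed. The share of all genes was 6.22% in iPSC against ESC, 6.3% from day 0 to day 1, 6.55% from day 1 to day 3 and 17.7% in the cJun course. It was 0.0748% with cJun on day 0, 1.98% with cJun on day 1 and 3.82% in the interaction.

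Other subunits of the BAF family were looked at from a list of 20 genes, of which 18 were in the table and tested. In ESC against MEF, 2 of the 18 rose and 4 fell, beside 29.3% of all genes higher and 25.4% lower. Their median fold was 0.02, against 0.13 for all genes. Bicral, a subunit of the non-canonical complex, was at 491 and 403 in ESC and 80 and 69 in MEF and rose by 2.57 (limma adjusted p = 1.49e-06). Bcl11a, a zinc finger subunit, fell by 4.40, its relative Bcl11b fell by 3.67, and Pbrm1, of the PBAF complex, fell by 0.89. Bcl11a was at 0 and 2 in ESC and at 55 and 23 in MEF, and the size of its fold was set by the pseudocount, at -6.28 with 0.1 and -2.08 with 10, though it passed with each. Bcl11b was at 4 and 5 in ESC and at 44 and 107 in MEF, with folds of -3.91 and -2.46 under the same pseudocounts, and it did not pass with 0.1. In OSK-D7 against OSK-D0, 3 of the 18 rose and 2 fell, beside 16.4% of all genes higher and 15.8% lower. Brd7, a bromodomain subunit of PBAF, was at 916 and 1080 in OSK-D7 and at no more than 656 in any other library. It rose by 1.70 from day 0 to day 7 (adjusted p = 5.28e-05) and was lower by -1.60 with cJun on day 7 and by -0.96 with the hairpin. The hairpin call was lost without OSK-D7 replicate 2 (-0.84) or hairpin replicate 1 (-0.60).

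The other families of ATP-dependent remodellers gave the background for ESC against MEF. Of all genes tested, 29.3% rose and 25.4% fell. Of 13 ISWI genes, 7 rose and 0 fell. Of 18 CHD and NuRD genes, 7 rose and 2 fell, and of 18 INO80 and SRCAP genes, 13 rose and 0 fell. The median folds were 0.70, 0.36 and 0.85, beside 0.44 for the 10 BAF genes and 0.13 for all genes tested. The 10 BAF genes and the other BAF subunits therefore held genes that passed in both directions, as did CHD and NuRD, and no difference between these lists was tested.

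Across the 13 group means the 10 genes had no common profile. Pearson correlations between them, given as a description because the groups share cells of origin and course, ran from -0.88 for Smarca2 with Actl6a to 0.89 for Smarca4 with Smarcc1. Smarcd1 and Actl6a were at 0.89, Smarca2 and Smarcc2 at 0.82, and Smarcc1 and Smarcc2 at -0.84. For the 3 genes with the widest range, the genes of the whole table with the most similar profile were listed. For Smarca2 they were Ube2e2 (0.98), Pomgnt2 (0.97) and Syt1 (0.97). For Smarcd3 they were Tep1 (0.93), Tbc1d22a (0.93) and Tmem136 (0.92), and for Actl6a Map4k1, Insl3 and Triml1 (0.98 each).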

How the data were processed

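Total RNA was extracted with TRIzol and libraries were built with a TruSeq RNA kit, per the labels' protocols. The submitters' processing notes name bcl2fastq, Bowtie2, RSEM and mm10, with no versions. The deposited values are a normalised score made by the authors, in whole numbers of nearly equal distribution in each library, with a highest value of 21544. They are not counts, so read depth is unknown and no counting interval is given.

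Scores plus 1 were taken to log2, genes with at least 10 in at least 2 libraries were kept (16038 of 18198), and a linear model with a mean for each of the 13 groups was fitted over the 26 libraries by limma 3.58.1 (statmod 1.5.0, R 4.3.3), with robust variance moderation along a trend. A total of 16 comparisons was made. The limma code was tested on simulated data. Paralog ratios were tested by exact permutation in Python 3.11.15 with numpy 2.4.6. Gene symbols were matched for 18039 genes, gene positions come from the GRCm38 annotation, and promoters from RefSeq. Figures were drawn with matplotlib 3.10.9.

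The members, lists, comparisons and tests were chosen with earlier results of these data known. The 10 BAF genes are all named. Of the other lists, up to 4 genes with the smallest adjusted p in a comparison could be named, and for the 3 BAF genes with the widest range of group means the 3 tested genes of highest Pearson correlation over the 13 group means. Pou5f1, Jun and Sap30 check the labels. Chpf2 and Mrpl47 were added for their exon overlap, after the data were seen. Replicates were treated as independent. Tried alternatives were the pseudocount (0.1 and 10), the filter, median centring, a constant prior variance, the compared libraries alone, a replicate block, a minimum log2 fold of 1, and leaving out libraries.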

Additional observations from a re-analysis of the deposited data

Results flagged for a closer look

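Brd7, the bromodomain subunit of PBAF, changed from day 0 to day 7 differently with and without added cJun. Its score went from 332 and 282 to 916 and 1080 with OSK, and from 310 and 283 to 323 and 331 with OSK and cJun. The difference between the changes was -1.56 on the log2 scale (limma interaction, adjusted p = 0.0199, over 16038 genes, of which 4.02% passed). It stayed between -1.44 and -1.67 when any 1 of the 8 libraries was left out, and it no longer passed without OSK-D0 replicate 2 (-1.44), OSK-D7 replicate 2 (-1.44), OSK-cJun-D0 replicate 1 (-1.49) or OSK-cJun-D7 replicate 1 (-1.54). The summed score of 12 proliferation markers was 14649 to 19796 in OSK-D7 and 10561 to 11618 in OSK-cJun-D7, and its part in the difference was not tested.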

How the results depend on the processing

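Of 2280 log2 folds of the 10 genes recomputed under an alternative, 2165 stayed on their side of the threshold, 111 lost a call, 4 gained one and 0 calls reversed. Of the 2165, 2106 kept their sign and 59 changed it while short of the threshold in both settings. With the compared libraries alone in the fit, which leaves few residual degrees of freedom, 24 calls were lost. The number of genes passing was then 0 for iPSC against ESC (3 at an unadjusted p below 0.05), OSK-D0 against MEF (1), day 1 against day 0 (3), day 3 against day 1 (2), day 7 against day 3 (3), cJun on day 3 (5), cJun on day 7 (4) and the hairpin (2), 4 for iPSC against OSK-D7 and 1 for the cJun course. In the order given, 4532, 2499, 3437 and 3563 of all 16038 genes had that unadjusted p, up to day 3 against day 1. From day 7 against day 3 to the hairpin there were 3700, 3839, 3982 and 3276. Of all genes, 0 then passed for OSK-D0 against MEF, day 7 against day 3, cJun on days 0 and 1 and the hairpin, in place of 1451, 1797, 13, 379 and 2373. The all-gene counts also fell to 531 of 1141 (iPSC against ESC), 53 of 1340 and 569 of 1343 (the first 2 steps of the course), 3224 of 5165 (day 7 against day 0), 969 of 1545 and 541 of 2672 (cJun on days 3 and 7), 2353 of 3760 (the cJun course) and 331 of 644 (the interaction). For cJun on day 0 it was 25 at pseudocount 10 and 7 with a filter of 50. With a log2 fold of at least 1 also required, 22 calls were lost, leaving 4 in ESC against MEF, 0 in iPSC against ESC, day 1 against day 0, day 3 against day 1 and the cJun course, and 1 each in day 7 against day 3, cJun on day 3, cJun on day 7 and the hairpin. Median centring cost 3 calls (Smarcd2 and Arid1a in iPSC against MEF, Smarcc2 with the hairpin) and a constant prior variance 3 (Smarca2 from day 3 to day 7, Smarcd2 in iPSC against OSK-D7, Smarcc2 with the hairpin). Without OSK-D5 the interaction passed for 2 genes.

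Leaving out 1 library at a time gave 6 to 8 genes for ESC against MEF, 6 to 9 for iPSC against MEF, 0 to 0 for iPSC against ESC, 1 to 1 for OSK-D0 against MEF, 0 to 1 for day 1 against day 0, 1 to 2 for day 3 against day 1, 0 to 3 for day 7 against day 3, 3 to 5 for day 7 against day 0, 4 to 5 for iPSC against OSK-D7, 0 to 2 for cJun on day 3, 0 to 2 for cJun on day 7, 1 to 2 for the cJun course, 2 to 3 for the hairpin, and 0 to 0 for cJun on days 0 and 1 and the interaction. The all-gene count fell by over 1.5 times without 1 library in 11 comparisons, among them to 1 of 13 for cJun on day 0 without OSK-cJun-D0 replicate 2, 53 of 379 for cJun on day 1 without OSK-D1 replicate 2, 289 of 1797 for day 7 against day 3 without OSK-D3 replicate 1 and 596 of 2373 for the hairpin without OSK-D7 replicate 2. The ratio differences ran from 3.51 to 4.14 (Smarca4 to Smarca2), 2.86 to 3.10 (Smarcc1 to Smarcc2), 2.38 to 2.95 (Smarcd1 to Smarcd3), 0.95 to 1.35 (Smarcd2 to Smarcd3) and 1.28 to 1.45 (Arid1a to Arid1b). Against MEF alone they were 3.07, 2.77 and 3.12 for the first 3 pairs and 1.43 for Arid1a to Arid1b, with an exact permutation p of 0.0667, the smallest that design can give. At pseudocount 10 Smarcd2 to Smarcd3 passed, at 1.09, as it did without OSK-D0 replicate 1, at 1.35.

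Replicate numbers were not treated as pairing: deviations of same-numbered libraries correlated at a median of -0.0013 (-0.09 to 0.33), above 0.1 in 28 of 78 pairs of groups. The replicate block changed 0 calls of the 10 genes in limma. Permuted within a replicate block, the ratio differences of 3.76, 2.96, 2.64 and 1.36 had a smallest possible exact p of 0.0556. The cause of these changes was not tested, other than the number of libraries or genes an alternative leaves.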
